A study of Nicrophorus vespilloides with 24 samples.

Results

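The loci described here are the 50 of 11403 in the head transcriptome of the burying beetle *Nicrophorus vespilloides* that were expressed at a higher level in males than in females in every social and behavioural state while moving little when the parents cared for larvae. A locus stands for 1 assembled contig, or for several whose sequences overlap, with a blast hit to an arthropod. Counts were divided by median-of-ratios size factors (scaled counts, comparable between libraries) and put on a log2 scale after adding 1. Of the 11403 loci, 8491 had a mean scaled count of at least 20, and 2380 of these had a parenting minus control change between -0.3 and 0.3 on the log2 scale in each of the 4 groups of parents (uniparental males, biparental males, uniparental females, biparental females). These 2380 are called steady loci below. The male minus female difference of group means was then taken in each of the 6 combinations of parenting type and stage, and the 50 steady loci with the highest smallest difference were kept. The loci were thus chosen by their sex differences and their caring changes, which are given as a description with no test.

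Each of 24 libraries was made from the pooled brains and associated head tissue of 10 beetles aged 21 days, with 2 libraries in each of 12 groups. Male and female beetles were sampled as uniparental or biparental animals and, within each type, as parenting, post-parenting or control animals, and all had mated. Parenting beetles were taken from the carcass near their larvae, post-parenting beetles after they had left a brood they had raised, and control beetles had been housed with a mate and no carcass. Uniparental parents had lost their mate to the experimenter, biparental parents kept it, and each type had control and post-parenting groups of its own. Once removed, each beetle was held alone in a container, and its head was taken 24 h later. A library is thus an average over 10 heads, which held fat body and connective tissue beside the brain, and fewer cells of a type and less RNA per cell cannot be told apart in it.

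Burying beetles breed on small vertebrate carcasses, and a female, a male or a pair may prepare the carcass, defend it and regurgitate food to begging larvae. Sex-biased expression in insect heads is known from nervous tissue, muscle, fat body and sensory organs, and can come from sex-specific splicing factors and hormones or from unlike shares of tissue. The genes that the study followed were chosen because they moved when beetles cared, whereas the loci here were held to small caring changes.

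None of the 50 loci has a gene name here. The study's list of genes that were differentially expressed during caring holds 866 loci with descriptions, and 0 of the 50 were among them. Each of the 50 had a blast hit, all 50 hits were different, and 0 of the hits were shared with a described locus. The loci are therefore given by their identifiers, no function is assigned to any of them, and their contig sequences were not used here.

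The first locus of the list, Locus_19105, stood apart from the rest in the size of its sex difference. Its scaled count in the 12 male libraries was 4119 at the lowest, 4807 at the median and 6078 at the highest, against 1663, 2010 and 2888 in the 12 female libraries. Every male library lay above every female library. The male minus female difference was 1.07 in uniparental controls, 1.19 in uniparental parents, 1.15 in uniparental post-parenting beetles, 1.39 in biparental controls, 1.27 in biparental parents and 1.22 in biparental post-parenting beetles. On a linear scale males held between 2.10 and 2.61 times the female level. Locus_19105 was the 1 locus of the 50 whose smallest difference reached 1. Its smallest difference would be 0.81 without the first uniparental female control library, since the 2 libraries of that group had 1999 and 2888 scaled counts.

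Locus_6314 was the most abundant of the 50, with a mean scaled count of 5297. Its male libraries ran from 5143 through a median of 6564 to 9228, and its female libraries from 2932 through 3726 to 4285, again with no overlap. The difference was smallest in uniparental controls, at 0.68, and largest in biparental controls, at 1.26, so males held 1.60 to 2.39 times the female level. In Locus_78561 the male libraries ran from 799.6 through 942.9 to 1357 and the female libraries from 331.3 through 575.9 to 727.9. Its difference was largest where those of the first loci were not, at 1.21 in uniparental post-parenting beetles, and smallest at 0.65 in biparental parents. The 2 biparental male parenting libraries held 1357 and 873.1, and the smallest difference would be 0.34 without the first of them. In Locus_2883 the male libraries ran from 940.0 through 1084 to 1260 and the female libraries from 508.5 through 682.4 to 839.0, with differences between 0.46 and 0.89. These 4 loci are the ones among the first 8 in which the sexes did not overlap over all 24 libraries.

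The other 4 of the first 8 loci, Locus_3040, Locus_C903328, Locus_C885822 and Locus_38301, overlapped between the sexes over all libraries while their level also differed between the parenting types. In Locus_C903328 the male range of 314.9 to 903.6 covered most of the female range of 213.2 to 591.8. Within a type the sexes were apart, with 820.7 to 903.6 in uniparental males against 429.0 to 591.8 in uniparental females, and 314.9 to 422.8 in biparental males against 213.2 to 276.3 in biparental females. Its smallest difference, 0.55, would be 0.37 without the first biparental female control library. Locus_3040 had far fewer counts, and its sexes overlapped in uniparental beetles, with 121.0 to 239.2 in males against 77.2 to 157.5 in females. They did not overlap in biparental beetles, with 55.2 to 92.9 in males against 22.8 to 50.8 in females. Its difference was between 0.56 and 1.18. Locus_C885822 was lower rather than higher in uniparental beetles, where males held 1690 to 2274 and females 971.8 to 1579 with no overlap. Its biparental males held 2748 to 4543 and its biparental females 2142 to 3058, which overlapped. Its difference lay between 0.52 and 0.78, and its smallest would be 0.28 without the second biparental male post-parenting library. Locus_38301 was the least abundant of the 50, with a mean scaled count of 56.7 and differences between 0.48 and 0.75. It held 46.2 to 64.3 in uniparental males against 31.7 to 45.1 in uniparental females, and 65.2 to 102.3 in biparental males against 38.6 to 70.6 in biparental females.

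**Figure D1:**
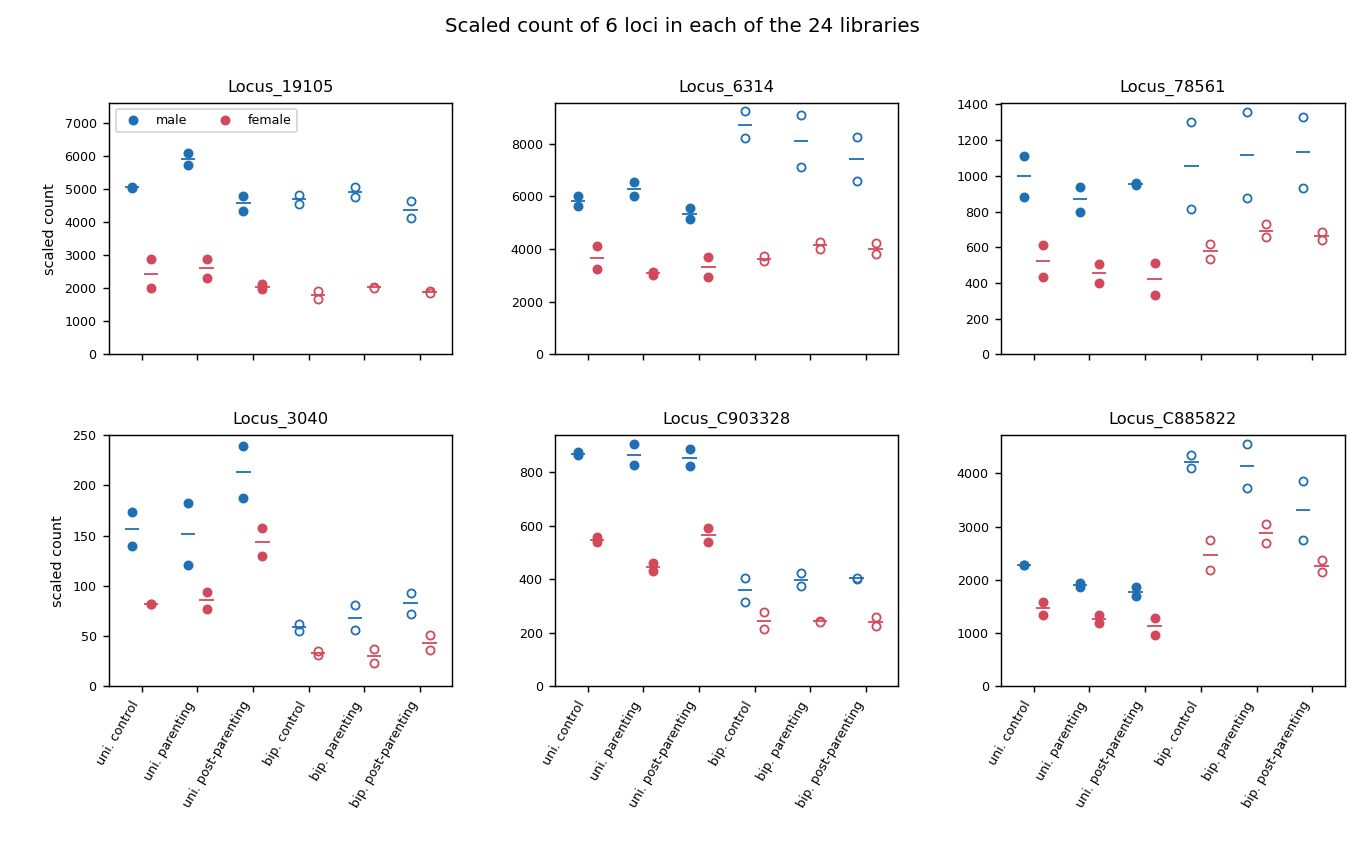
Scaled count (y axis, linear, from 0) of the first 6 loci of the list in each library, males in blue left of females in red, by parenting type and stage (x axis, uniparental filled and biparental open). Points are libraries and lines are the mean of the 2 libraries of a group. Male libraries of Locus_19105 lie between 4119 and 6078 and female libraries between 1663 and 2888, while Locus_C903328, Locus_3040 and Locus_C885822 shift in both sexes between the parenting types.

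Over the whole list the sex difference was modest. Its median over the 50 loci was 0.43 in uniparental controls, 0.54 in uniparental parents, 0.39 in uniparental post-parenting beetles, 0.55 in biparental controls, 0.45 in biparental parents and 0.52 in biparental post-parenting beetles. On a linear scale these medians were 1.35, 1.45, 1.31, 1.47, 1.37 and 1.43-fold. Over all 8491 loci at or above the abundance limit, the median difference in the same combinations was between -0.02 and 0.03. The smallest difference was at least 0.5 in 6 of the 50 loci and at least 0.3 in 17, and it was under 0.3 in the other 33. Whether the sex difference of a locus changed with stage or with parenting type was not tested, since the rule took its smallest value over them.

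Separation of the sexes was then counted over all libraries, within each parenting type and within each combination. All 12 male libraries lay above all 12 female libraries in 10 of the 50 loci, where 1.2% of the 8491 loci did so. The 10 were Locus_19105, Locus_6314, Locus_78561, Locus_2883, Locus_74795, Locus_63384, Locus_C865388, Locus_6321, Locus_10767 and Locus_11757. In 20 loci the 6 male libraries lay above the 6 female libraries within both parenting types, against 3.03% of the 8491. Both male libraries lay above both female libraries in each of the 6 combinations in 40 loci, against 7.33%, and in 5 combinations in a further 7. The rule used the same differences, so these shares describe the list and are no evidence for it. Of the 40 loci in which the sexes overlapped over all libraries, 5 had at most 2 female libraries above the lowest male library, and the most was 9 of 12, in Locus_45197, Locus_35302 and Locus_C909234.

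The spread between libraries of a group bears on how far single loci can be read. The gap between the 2 libraries of a group, on the log2 scale, had a median over the 12 groups that was typically 0.14 in the 50 loci (the median over loci) and 0.19 in all 8491. The smallest sex difference exceeded this median gap in 46 of the 50 loci. It exceeded the largest gap of the 12 groups in 10. The loci were ranked by this smallest difference, so both counts describe the list and are no evidence for it. The steadiest difference was that of Locus_6329, between 0.26 and 0.37, with 997.0 to 1217 scaled counts in males and 795.1 to 1001 in females. The least steady was that of Locus_1187, which was 0.40 in uniparental parents and 1.18 in biparental parents, with 108.7 to 195.7 scaled counts in males and 46.5 to 122.7 in females. Its smallest difference would be 0.10 without the second uniparental male control library.

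**Figure D2:**
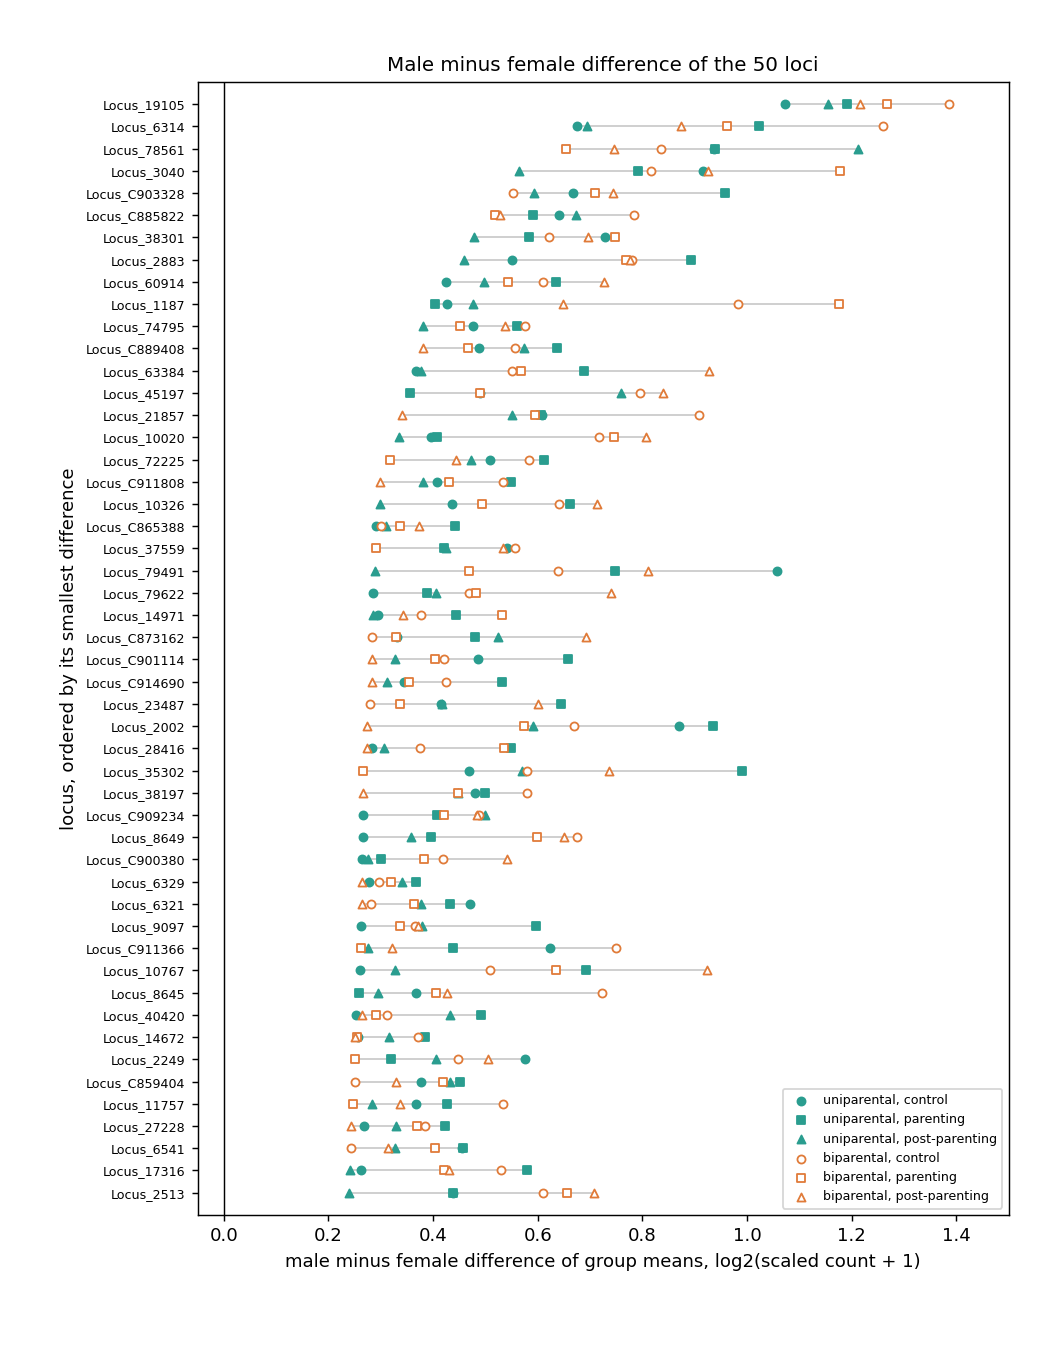
Male minus female difference of group means (x axis, log2 of scaled count plus 1) of each of the 50 loci (y axis, ordered by the smallest of the 6). Symbols stand for the 6 combinations of parenting type (filled uniparental, open biparental) and stage, and grey lines join the smallest and the largest. Locus_19105 lies alone between 1.07 and 1.39, and 33 loci have a smallest difference under 0.3.

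The end of the list was close to the loci just outside it. The last 3 loci were Locus_6541, Locus_17316 and Locus_2513, each with a smallest difference of 0.24, and the first 3 outside were Locus_7309 at 0.24, Locus_C848171 at 0.23 and Locus_17417 at 0.23. The smallest difference of Locus_6541 would be 0.14 without the second uniparental male post-parenting library. Locus_2513 was abundant, with 3069 to 5901 scaled counts in males and 2521 to 3891 in females. Locus_7309 had 1232 to 1891 scaled counts in males and 849.7 to 1227 in females. It was the only steady locus outside the list in which all male libraries lay above all female libraries. In all, 428 of the 2380 steady loci were higher in males in each of the 6 combinations.

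The summed scaled count of the 50 loci differed between the sexes by the way they were chosen and is given for its size. It was 58156 at the lowest, 67764 at the median and 78728 at the highest in male libraries, against 41131, 46976 and 51109 in female libraries. It was lower in uniparental than in biparental males, with medians of 64386 and 74322, and likewise in females, with medians of 43851 and 48824. The sum weights abundant loci. The mean scaled count of a locus was 723.4 at the median of the 50, against 508.6 at the median of the steady loci and 335.1 at that of all 8491, and 20 of the 50 loci had a mean of 1000 or more.

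Of the 50 loci, 28 were built from a single scaffold of the assembly and 22 from several, while 59.7% of the steady loci and 68.4% of all 8491 loci were built from a single one. Where loci share a blast hit they may be parts or copies of 1 gene, and reads may be divided between them. This applied to 2 of the 50 loci, against 16.9% of the 8491. Locus_63384 shared its hit with Locus_518, which was also higher in males, by 0.19 to 0.73, with 253.5 to 456.1 scaled counts in males and 220.9 to 369.7 in females. Locus_C909234 shared its hit with Locus_C870802, which was higher in males by 0.41 to 0.88 and fell outside the caring limit, with changes between -0.38 and -0.14.

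The caring changes, which the rule held within 0.3, were not centred alike. Their median over the 50 loci was -0.03 in uniparental males, -0.02 in biparental males, -0.14 in uniparental females and 0.05 in biparental females. In uniparental females 42 of the 50 changes were below 0. The same share over all steady loci was not counted, so this lean is not read as a trait of the list. The changes of Locus_19105 were all above 0, at 0.22 in uniparental males, 0.06 in biparental males, 0.10 in uniparental females and 0.18 in biparental females. Those of Locus_C903328 reached -0.30 in uniparental females.

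The state after caring was not used by the rule as a change, and the question was whether loci that were steady during caring were also steady once the parents had left. Post-parenting beetles were compared with controls of the same sex and type in 1 edgeR quasi-likelihood fit over all 24 libraries and 9648 loci, with p-values adjusted over all loci. These comparisons share their control libraries with the caring changes above. Their control and post-parenting libraries also entered the sex differences that ranked the loci. In uniparental males 0 of the 50 loci passed an adjusted p of 0.05, as did 0.0% of all loci. In biparental males 0 of 50 passed, against 0.0104% of all loci. In uniparental females 0 of 50 passed, against 0.0207%, and in biparental females 0 of 50, against 0.0%. With edgeR's unadjusted p under 0.05 the counts were 2 of 50 in uniparental males (8.04% of all loci), 4 in biparental males (11.7%), 5 in uniparental females (7.39%) and 7 in biparental females (16.3%). DESeq2, which gives no adjusted p to loci that its own filter removes, called 0 of 36 in uniparental males (0.57% of all loci with an adjusted p), 0 of 50 in biparental males (0.402%), 0 of 21 in uniparental females (2.68%) and 1 of 50 in biparental females (1.42%).

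The fitted post-parenting over control changes of the 50 loci were mostly small. Their median was -0.11 in uniparental males, -0.04 in biparental males, -0.11 in uniparental females and 0.03 in biparental females, where the medians of all loci were between -0.02 and 0.02. The median standard error of a change was 0.15 on the log2 scale in each of the 4 groups. In simulated counts with 2 libraries a group, 51% of 2-fold changes in biparental males were recovered. Across such loci, changes well under 2-fold were thus mostly not detectable at this size in biparental males, the only post-parenting comparison simulated. The changed loci were drawn from those above a minimum expected count in the smallest library, with scarcer loci left out. By medians, the 50 loci were more abundant and varied less between replicates than all loci at or above the abundance limit. Their own recovery may differ and was not simulated. On the scale of the rule, 34 of the 50 loci (68.0%) kept all 4 post-parenting changes within 0.3, and so did 71.6% of the steady loci.

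The widest post-parenting values belonged to a few loci. Locus_3040 had the highest value in uniparental females, at 0.79 ± 0.25 (SE, 2 libraries a group; edgeR adjusted p = 0.36), and also in uniparental males, at 0.45, and biparental males, at 0.48. Its scaled counts were 157.5 and 129.5 in post-parenting uniparental females, against 82.0 and 82.1 in controls. These libraries did not overlap, but the locus is among the 3 with a mean scaled count under 100. Locus_21857 had the highest value in biparental females, at 0.55 ± 0.14 (edgeR adjusted p = 0.15), and is the locus that DESeq2 called there, with an adjusted p of 0.048. It held 593.0 and 644.0 scaled counts in post-parenting biparental females, against 481.6 and 368.9 in controls. The lowest values were those of Locus_79491, at -0.54 ± 0.36 in uniparental males and -0.57 ± 0.37 in biparental females (edgeR adjusted p = 0.77 and 0.45). It held 56.7 and 32.1 scaled counts in post-parenting biparental females, against 71.1 and 62.2 in controls, with no overlap. Locus_C900380 stood at -0.50 ± 0.18 in biparental females (edgeR adjusted p = 0.22). Locus_8645, with the lowest p-value in uniparental males, stood at -0.44 ± 0.13 there (edgeR adjusted p = 0.28). It held 1128 and 1205 scaled counts in post-parenting uniparental males, against 1501 and 1681 in controls.

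The fitted changes in biparental females depended on single libraries. Without the first post-parenting library of that group, 5 loci, picked by their outcome in that refit, had changes further below 0 than with both libraries. The refitted changes of the rest of the 50 are not given here. The 5 were Locus_79622 at -0.51, Locus_C900380 at -0.87, Locus_10767 at -0.62, Locus_10020 at -0.82 and Locus_8649 at -0.58. The group then has only its second post-parenting library, whose spread is taken from the other groups, so these values rest on that library alone. Locus_10020 held 1445 and 883.0 scaled counts in the 2 libraries of that group, against 1424 and 1596 in controls. Locus_79622 held 681.6 and 534.0 scaled counts in the 2 libraries of that group, against 706.9 and 766.7 in controls. The difference of the post-parenting change between the types, uniparental minus biparental, passed the adjusted threshold in 0 of 50 loci in males and in 0 of 50 in females, against 0.0% of all loci in each sex. With edgeR's unadjusted p under 0.05 it did so in 0 of 50 in males, against 3.0% of all loci, and in 2 of 50 in females, against 6.85%. Those 2 were Locus_21857, at -0.65 ± 0.19, and Locus_40420, at -0.42 ± 0.19.

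**Figure D3:**
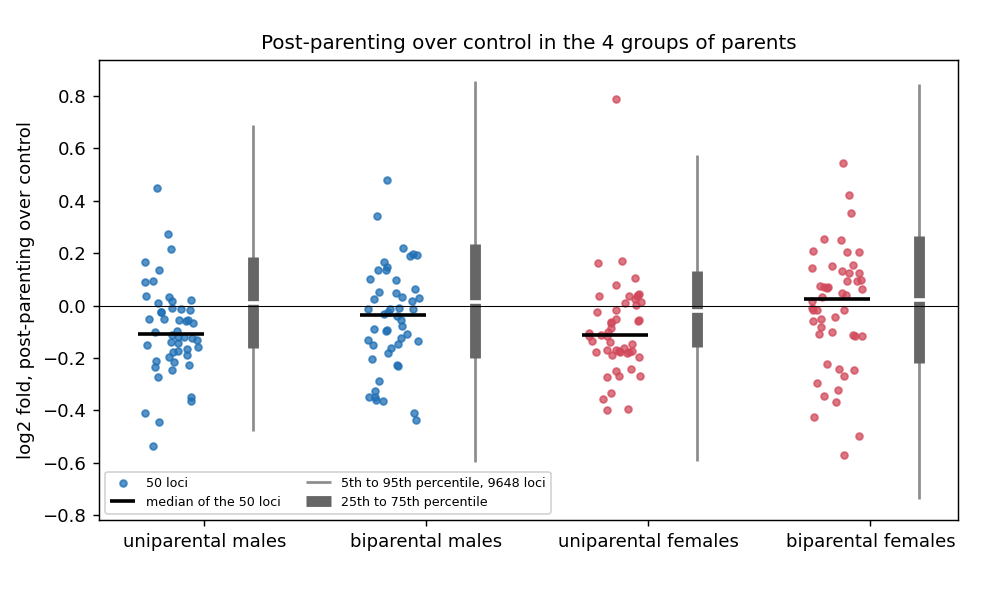
Fitted log2 fold change of post-parenting over control (y axis) in the 4 groups of parents (x axis), with males in blue and females in red. Each point is 1 of the 50 loci, black lines are their medians, and grey bars give the 25th to 75th (thick) and 5th to 95th (thin) percentiles of 9648 loci, with the median in white. The medians of the 50 loci lie between -0.11 and 0.03, and 0 of the points passed the adjusted threshold.

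In contrast, most of the 50 loci differed between uniparental and biparental beetles, as did most loci of the transcriptome. In males 37 of 50 passed edgeR's adjusted threshold for the mean of the 3 stages, against 65.7% of 9648 loci. Of these 12 were higher in uniparental males, against 34.3% of all loci, and 25 were lower, against 31.4%. In females 36 of 50 passed, against 60.7% of all loci, with 13 higher in uniparental females, against 30.9%, and 23 lower, against 29.8%. As shares of the 50, the lower loci made up 50.0% in males and 46.0% in females. The median change was -0.23 in males and -0.19 in females, where the medians of all loci were 0.03 and 0.01. More of the 50 were lower than higher at each stage. By group means, 33, 35 and 33 of 50 loci were lower in uniparental males at control, parenting and post-parenting. In uniparental females the counts were 29, 35 and 32. The median differences of the 50 by group means were -0.20, -0.23 and -0.27 in males and -0.08, -0.31 and -0.15 in females. Those of all loci at or above the abundance limit were -0.04, -0.02 and -0.04 in males. In females they were -0.03, -0.03 and 0.0009. The share of all these loci that were lower was not counted, so the counts by stage only describe the list.

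Calls in both sexes ran in the same direction, as nearly all did in the transcriptome. Of the 50 loci, 11 were called higher in both sexes (27.5% of all loci), 20 lower (25.2%) and 0 in opposite directions (0.0415%). A further 6 were called in males only (12.9%), 5 in females only (7.9%) and 8 in neither (26.4%). The shared calls were 83.8% of the male calls and 86.1% of the female calls, against 80.3% and 86.9% over all loci. The rule asked for a sex difference in both parenting types, which favours like shifts in both sexes, so nothing is read from these shares. A difference between the sexes in the size of this shift was not tested, since it is built from the sex differences that chose the loci.

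Locus_C859404 had the lowest p-values of the list. It held 4031 at the lowest, 4768 at the median and 4989 at the highest in uniparental males, against 1743, 1810 and 2113 in biparental males. In females it held 3134 to 4053 in uniparental and 1406 to 1627 in biparental libraries. The 6 uniparental libraries of each sex lay above all 6 biparental libraries, and the edgeR change was 1.38 ± 0.06 in males and 1.28 ± 0.06 in females (adjusted p = 8.2e-11 and 2.4e-10). Locus_C903328 was also higher in uniparental beetles, by 1.20 ± 0.08 in males and 1.11 ± 0.08 in females. Locus_3040 had the highest value in females, at 1.54 ± 0.16, and stood at 1.35 ± 0.15 in males.

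Locus_28416 and Locus_38197 were the furthest in the other direction. Locus_28416 held 879.0 to 1214 scaled counts in uniparental males, against 2130 to 2794 in biparental males, a change of -1.23 ± 0.09 (edgeR adjusted p = 1.4e-08). In females it held 754.1 to 967.2 in uniparental and 1708 to 2387 in biparental libraries, a change of -1.23 ± 0.09. Locus_38197 changed by -1.09 ± 0.08 in males and by -1.16 ± 0.09 in females. In each of these loci the shift between types was larger than the difference between the sexes, which averaged 0.39 in Locus_28416, 0.45 in Locus_38197 and 0.38 in Locus_C859404. The smallest sex difference of Locus_28416, 0.27, would be 0.08 without the second biparental male post-parenting library, and that of Locus_38197, also 0.27, would be 0.09 without the first biparental female post-parenting library. The fitted shifts of the 2 loci with the largest sex differences were smaller. Locus_19105 changed by 0.19 ± 0.08 in males (adjusted p = 0.057) and 0.33 ± 0.08 in females, and Locus_6314 by -0.43 ± 0.09 in males and -0.20 ± 0.09 in females (adjusted p = 0.062).

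Depth moved with the parenting type. Library totals were between 16131079 and 23906173 counts in uniparental libraries, with a median of 20099486, and between 14647691 and 18156673 in biparental libraries, with a median of 15440456. Each type had its own libraries at all 3 stages, controls included, so the effect of losing a mate and whatever else separated the 2 sets of beetles and libraries cannot be told apart. Total counts in male libraries had a median of 16500695, against 17943105 in female libraries.

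**Figure D4:**
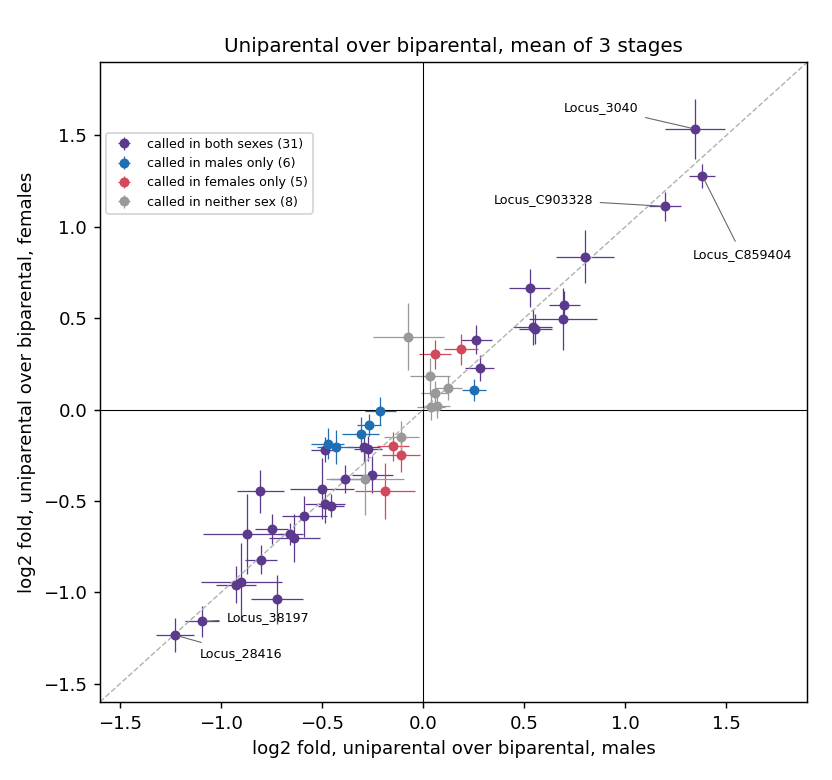
Fitted log2 fold change of uniparental over biparental beetles, mean of 3 stages, in males (x axis) and females (y axis). Each point is 1 of the 50 loci with its standard errors, coloured by the sexes in which edgeR called it, and the dashed line marks equal changes. The points run along that line from Locus_28416, at -1.23 in both sexes, to Locus_C859404 and Locus_3040, and 0 loci were called in opposite directions.

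Names were used only for loci of the study's caring list, which were chosen for changing with caring, so the male-biased loci that can be named here lay outside the caring limits. Outside them 612 loci had a smallest male minus female difference at least as large as that of the last of the 50, and 34 had a larger one than Locus_19105. Of the 612, 162 were in the study's caring list and 88 had a named hit. Among the 12 named loci with the largest smallest differences, a locus with the fly hit GA18926 (Locus_51169) came first, higher in males by 2.30 to 5.67. A putative glycine-rich protein (Locus_6650) followed, at 2.24 to 6.41. Kettin (Locus_C829764), a giant protein of insect muscle filaments, was higher in males by 2.04 to 4.04. Tropomyosin (Locus_C889332), which lies along actin filaments in muscle, was higher by 1.08 to 2.11. Limpet (Locus_C904388), a LIM domain protein, was higher by 1.27 to 2.12, and paxillin (Locus_C891564), an adaptor of muscle attachment sites, by at least 1.17. Arylphorin (Locus_3250), a storage protein of the fat body, was higher in males by 1.62 to 5.73 and changed by between -9.02 and -3.96 with caring. The rest of the 12 had hits to CG32030 (Locus_C895236), a LIM domain protein (Locus_C812978) and a BTB domain protein (Locus_C885946). An ADFb like protein (Locus_58164) and a cuticular protein (Locus_11843) completed them.

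Named markers of other tissues were therefore checked across the sexes. All 39 muscle loci (kettin, titin, myosin heavy chain, troponins and others) come from the caring list and 0 are among the 50. Of the 38 at or above the abundance limit, 35 were higher in males in all 6 combinations, against 19.4% of the 8491 loci, and 12 had all male libraries above all female libraries. Their summed scaled count was 1236000 to 3239880 in male libraries, with a median of 2005490, against 348847 to 1248650 in female libraries, with a median of 830694, so that the ranges overlapped. It was lower in uniparental males, at a median of 1505240, than in biparental males, at 2499780. Of the 14 fat body loci (vitellogenins, hexamerins, arylphorin, apolipophorins) 12 reached the limit and 11 were higher in females in all 6 combinations, against 17.6% of the 8491 loci. Their sum was 8321 to 136209 in male libraries, against 658913 to 10390100 in female libraries. Of the 12 antennal loci (odorant binding and chemosensory proteins) at or above the limit, 4 were higher in females in all 6 combinations, and of the 5 photoreceptor and 4 germ line and cilia loci 0 were higher in either sex in all 6. None of these 3 lists had a locus with its sexes apart over all libraries. By their medians, the fat body and antennal sums were, like the muscle sum, lower in uniparental than in biparental males. The photoreceptor sum and the germ line and cilia sum were higher. Photoreceptor loci were present in each library, with sums of 14457 to 173640 in males and 19023 to 170004 in females, and neuronal markers were not analysed here, since descriptions were used only for the caring list. The part of muscle or fat body RNA in the sex differences of the 50 loci was not tested.

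**Figure D5:**
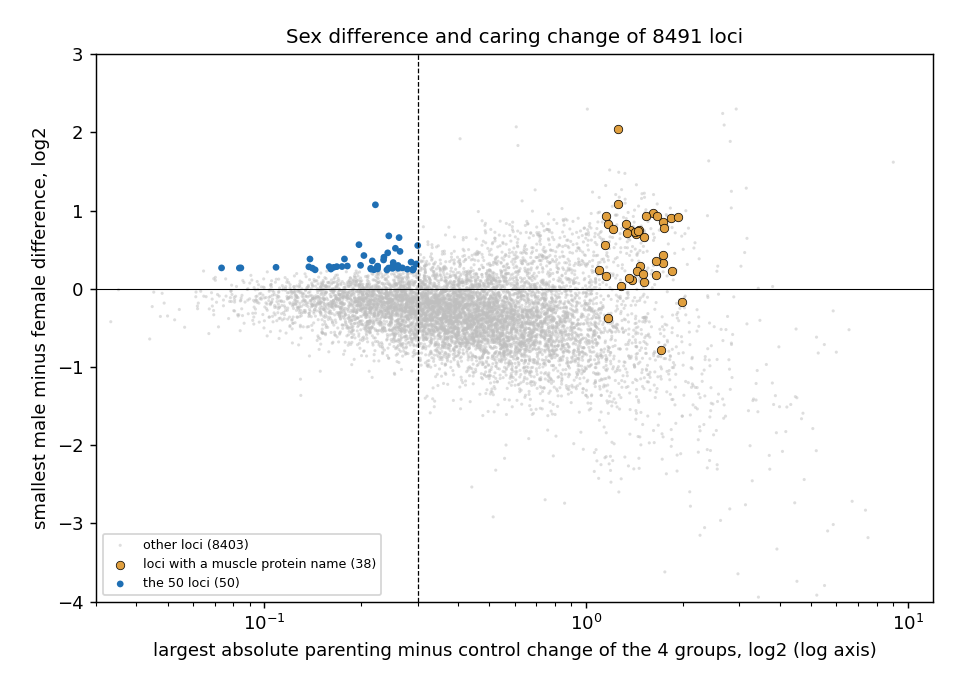
Smallest male minus female difference over the 6 combinations (y axis, log2) against the largest absolute parenting minus control change of the 4 groups (x axis, log2 change on a log axis) of the 8491 loci, of which 31 lie outside the axes. Blue points are the 50 loci, orange points 38 loci named after muscle proteins, grey points the other loci, and the dashed line is the caring limit of 0.3. The 50 loci form the upper edge left of the line, and all muscle loci, which were named from the caring list, lie right of it.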

How the data were processed

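RNA was sequenced in 24 libraries of pooled *N. vespilloides* heads, 2 for each of 12 groups given by the sample labels. The authors trimmed the reads with Trimmomatic 0.30, built a transcriptome assembly from them with no genome, retained contigs that hit an arthropod protein or transcript by blast, assigned reads with Bowtie2 and RSEM, and deposited expected counts per locus without normalization or pooling. Values that are not whole numbers stood at 33.3% to 48.9% of loci, depending on the library. Replicate libraries were separate pools, and the chi-square per degree of freedom between them was 18.7 to 74.4, so replicate spread and not depth limits the precision at abundant loci.

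The loci were chosen from the unrounded counts with size factors over the 9238 loci above 0 in every library, using Python 3.11.15 with pandas 2.3.3. The loci and the marker lists were chosen with earlier results of these data known. For tests, the counts were rounded and fitted in edgeR 4.0.16 (R 4.3.3) with TMM scaling and a mean for each of the 12 groups. The function filterByExpr, with a minimum count of 10, removed 1755 loci and left 9648, among them all 50. The quasi-likelihood test was run for 8 comparisons, each adjusted by Benjamini and Hochberg's method over 9648 loci at a threshold of 0.05. The study's likelihood ratio test, DESeq2 1.42.0, no filter on low counts, RLE scaling, a replicate block, fits to 12 libraries, other settings of the rule and each library left out in turn were tried. The procedure was tested on simulated counts.

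The loci named are the first 8 and last 3 of the list, the first 3 outside it, those with the extreme mean count or range of differences, those with the lowest p-values between parenting types, and up to 12 named loci that failed only the caring limit. Others were named after their values were seen. Gene descriptions came from the study's supplementary list, whose fold changes and p-values were not used. The replicate numbers of control males differ between sample titles and files, and the titles were followed.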

Additional observations from a re-analysis of the deposited data

How the results depend on the processing

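The list depended on the caring limit and on single control libraries. Of the 50 loci, 17 remained in a list of the same length with a limit of 0.2, 8 with a limit of 0.5 and 1 with no limit, while 45 remained with TMM size factors, 49 with a pseudocount of 5, and 50 with a floor of 10 or of 50. Leaving out 1 library kept 24 to 48 of the 50, the fewest without the second uniparental female control library, and 33 without the first. The count of loci with all male above all female libraries was then 10 to 12 in the list and 101 to 154 over all loci.

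For post-parenting over control, the likelihood ratio test called 130 loci of the transcriptome in uniparental males, 43 in biparental males, 94 in uniparental females and 103 in biparental females, and 2 for the difference between types in females. DESeq2, whose own filter left 1418 to 8338 loci with an adjusted p in these comparisons, called 23, 32, 58, 118 and 5 in the same order, with 1 of the 50 in biparental females. Fits to 12 libraries called 1, 2, 1 and 1. The likelihood ratio test and the fits to 12 libraries called 0 of the 50. With 1 library left out, 0 to 12, 0 to 2, 0 to 3 and 0 to 939 loci of the transcriptome were called in these 4 groups, 0 to 163 for the difference between types in females, and 0 to 5 of the 50 in biparental females. The highest counts came without the first biparental female post-parenting library, except 12 without a uniparental male control library. The cause was not tested. Without 1 library, 35 to 38 of the 50 and 6050 to 6482 of all loci were called between types in males, and 30 to 37 of the 50 and 5452 to 5939 of all loci in females.

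Samples with the same replicate number mostly did not deviate together, with a median r of 0.05 over 66 pairs of groups. The r ran from -0.34 to 0.44 and was above 0.1 in 21 pairs. The numbers are not taken as pairs. With the replicate block 1 locus of the transcriptome was called for the difference between types in females, against 0 without it, and 0 of the 50 in the post-parenting comparisons.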

Other observations

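Loci whose sexes were apart over all 24 libraries were unevenly divided between the sexes. Of the 8491 loci at or above the abundance limit, 102 had all male libraries above all female libraries and 37 had all female libraries above all male libraries. Of the 2380 steady loci, 11 were male above female and 16 were female above male. The median male minus female difference over the 8491 loci was -0.02 with median-of-ratios size factors and -0.04 with TMM, and both scalings centre the bulk of the loci. Whether the division differs between steady and other loci was not tested.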
